A study of Mus musculus with 58 samples.

Results

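CA3 is a field of the hippocampus, and 4 of the 58 samples of the series carry it as their tissue label. They were chosen by that label alone and set against the other 10 brain regions of C57BL/6 mice. The CA3 samples are named F3, F4, M1 and M4 in their titles, and the labels do not say what the letters or numbers stand for. The other regions held 49 samples: dentate gyrus (DG, n = 5), basolateral amygdala (BLA, n = 5), caudate-putamen (CPU, n = 6), wild-type frontal cortex (FC_WT, n = 2), thalamus (TH, n = 5), hypothalamus (HYP, n = 5), globus pallidus (GP, n = 5), substantia nigra (SN, n = 6), granular cell layer (GCL, n = 6) and Purkinje cells (PC, n = 4). CA3 and 9 of these regions are labelled healthy and C57BL/6, while FC_WT is labelled with the genotype WT and the genetic background C57BL/6. The frontal cortex and CA1 samples of the 3TG genotype entered no comparison. Ages, dissection methods and pooling are not given in the labels, and no label ties samples to animals, so every p-value here reflects only how far these samples spread. In fits with a term for each region that is the spread within regions, and the spread between the other regions does not enter.

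In the hippocampal circuit, the pyramidal neurons of CA3 receive the mossy fibres of dentate granule cells and send their own axons to CA1 and to one another. CA3 is known for its dense recurrent excitation and for its part in memory and in seizures. Methylation of cytosine at CpG dinucleotides is a stable mark that is usually scarce at CpG-rich promoters and common elsewhere, and it differs between cell types. A tissue sample holds neurons, glia and vessel cells, so a different share of cells and a different methylation level per cell cannot be told apart here.

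Methylation was read at 382 CpGs, each named for 1 of 381 genes, 17 of them X-linked, on a custom Illumina GoldenGate bead array after bisulphite conversion. The unit is the beta value, which gives the methylated part of the signal on a scale of 0 to 1. Mean beta per array lay between 0.263 and 0.274 in CA3, within the range of 0.249 to 0.289 over the other 49 samples. The first quartile of beta lay between 0.0574 and 0.0701 in CA3 and between 0.0456 and 0.0995 in the others. FC_WT and DG F7 to F9 have titles of another form than the other samples. No CpG of the array checks the CA3 label: the hippocampal field markers Grik4, Bok and Pou3f1 had CA3 means of 0.0497, 0.0332 and 0.0612, against 0.0479, 0.0301 and 0.0558 for the mean of the other regions, and none passed the test.

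The methylation profile of CA3 lay close to that of the other regions, and it differed from their mean by lower methylation at a few CpGs. These low levels were shared with other regions. DG had a lower mean than CA3 at F2rl2, Ctsg, Gfap, Grin2a, Ush1g and Tbxa2r, and none of the 8 CpGs was called against DG. The DG mean includes the differently titled F7 to F9. At F2rl2 and Grin2a the only other region below CA3 was FC_WT, which is also differently titled. Among the 8 CpGs, CA3 was the lowest of the 11 regions at Adra2c only. Of the CA3 means, 246 lay under 0.2, 99 from 0.2 to 0.8 and 37 over 0.8. The difference from the mean of the other 10 region means was smaller than 0.02 in size at 310 of the 382 CpGs. By limma on log2(beta / (1 - beta)), with Benjamini-Hochberg adjustment over all CpGs and an adjusted p under 0.05, 8 CpGs differed, which is 2.09% of those tested. All of these 8 fell in CA3 and 0 rose: F2rl2, Ctsg, Gfap, Grin2a, Adra2c, Ush1g, Tbxa2r and Id3. At an unadjusted p under 0.05, 22 CpGs were lower and 19 higher in CA3. The difference was 0.1 or more at 5 of the 8 calls and at no other CpG. With quantile normalization 7 CpGs were higher and 13 lower, and Ush1g was no longer among them.

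**Figure D1:**
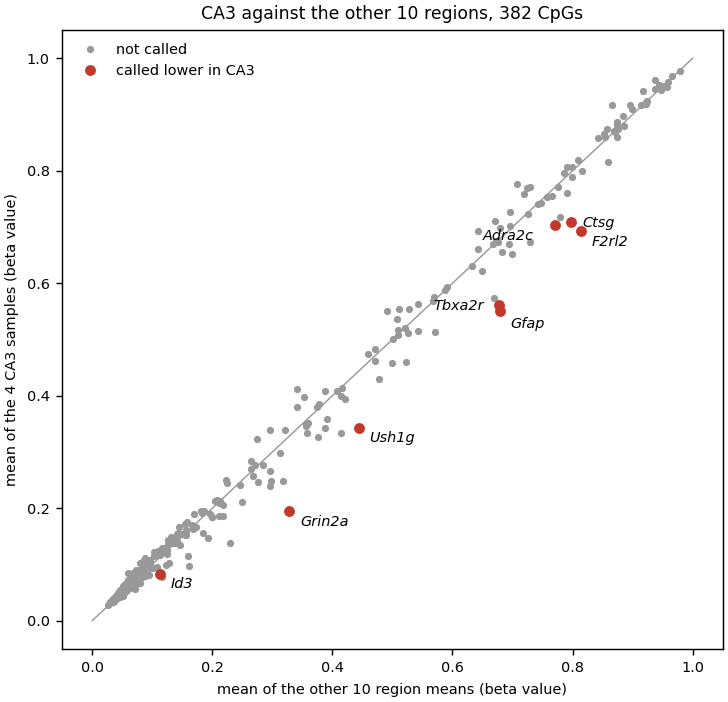
Mean beta value of the 4 CA3 samples (vertical axis) against the unweighted mean of the other 10 region means (horizontal axis) at each of the 382 CpGs, with the line of equality. Red points are the 8 CpGs called lower in CA3, and grey points were not called.

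The 8 calls rest on a small group. Leaving out CA3 F3 or M1 left 1 call, F2rl2 in both cases, and leaving out F4 or M4 left 4 of the 8 in each case. Without M4, P2rx1 was called as well, higher in CA3. Without FC_WT and DG F7 to F9, 16 CpGs were called, 15 of them lower in CA3, and all of the 8 were among these. Single samples of another region decided 2 calls: Tbxa2r was lost without FC_WT 1_a and Id3 without FC_WT 3, and both were lost with CPU M4_a in place of the mean of the 2 CPU M4 arrays.

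Among the genes of cell-surface receptors, F2rl2 had the largest log2 difference of the 8 calls. F2rl2 encodes a protease-activated receptor of the thrombin receptor family. Beta was 0.665, 0.766, 0.639 and 0.70 in CA3 F3, F4, M1 and M4, against a lowest, median and highest value of 0.518, 0.849 and 0.952 over the 49 other samples. The samples overlapped: 10 of the 49 lay below the highest CA3 sample. CA3 averaged 0.693 ± 0.0548 (SD, n = 4) and the other region means 0.814, a log2 difference of -1.20 ± 0.22 (SE; limma adjusted p = 0.00082). In the order of region means only DG, at 0.601, and FC_WT, at 0.615, lay below CA3, and the next above was CPU at 0.817. Compared with single regions, F2rl2 was lower in CA3 than in 8 of the 10, most of all than in GCL (0.936 ± 0.0129, SD, n = 6) and PC (0.926 ± 0.0090, SD, n = 4), while the adjusted p was 0.234 against DG and 0.359 against FC_WT.

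Grin2a encodes a subunit of the NMDA receptor, the glutamate-gated channel on which much of hippocampal synaptic plasticity depends. Its beta was 0.187, 0.215, 0.207 and 0.170 in CA3 F3, F4, M1 and M4. In the other 49 samples the lowest, median and highest values were 0.116, 0.356 and 0.602. All CA3 samples were thus in the low part of the range, with 6 other samples below the highest of them. The means were 0.194 ± 0.020 (SD, n = 4) in CA3 and 0.328 over the other regions (log2 difference -0.93 ± 0.22, SE; limma adjusted p = 0.0129). FC_WT at 0.132 and DG at 0.178 were again the only regions below CA3. Grin2a was lower in CA3 than in 7 single regions, with the widest gaps to CPU at 0.472 ± 0.0905 (SD, n = 6) and to HYP at 0.466 ± 0.0788 (SD, n = 5).

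Tbxa2r encodes the receptor of thromboxane A2, a lipid mediator of platelets and vessels, and is the only CpG of the list of endothelial and vascular genes. Beta was 0.498, 0.648, 0.553 and 0.547 in CA3 F3, F4, M1 and M4, and the lowest, median and highest of the 49 other samples were 0.303, 0.742 and 0.871. The overlap was wide, with 17 of the 49 below the highest CA3 sample. CA3 averaged 0.561 ± 0.0626 (SD, n = 4) and the other regions 0.677 (log2 difference -0.82 ± 0.22, SE; limma adjusted p = 0.0362). DG, GCL and PC had lower means than CA3, at 0.463, 0.509 and 0.515, and FC_WT lay just above it at 0.590. None of these 4 differed from CA3 by the test, whereas BLA, CPU, HYP, SN and TH, at 0.767 to 0.813, all did. GP also had a higher mean than CA3 but was not called.

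The fourth receptor gene, Adra2c, encodes an adrenergic receptor that dampens noradrenaline release. CA3 F3, F4, M1 and M4 had beta values of 0.690, 0.648, 0.717 and 0.759, against 0.650, 0.775 and 0.838 for the lowest, median and highest of the other 49 samples. CA3 had the lowest mean of the 11 regions here, the only call for which this was so, at 0.703 ± 0.0465 (SD, n = 4) against 0.771 (log2 difference -0.51 ± 0.13, SE; limma adjusted p = 0.0192). Its neighbours in the order, DG at 0.715 and CPU at 0.726, did not differ from CA3 by the test (adjusted p = 0.872 and 0.89), and 15 other samples lay below the highest CA3 sample.

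Gfap encodes the intermediate filament of astrocytes. Beta was 0.499, 0.612, 0.529 and 0.560 in CA3 F3, F4, M1 and M4, and the lowest, median and highest of the other samples were 0.313, 0.760 and 0.850. CA3 averaged 0.550 ± 0.0485 (SD, n = 4) and the other regions 0.679 (log2 difference -0.87 ± 0.21, SE; limma adjusted p = 0.0129). Regions fell on separate sides of a gap: DG (0.469), PC (0.481), GCL (0.507) and CA3 lay below it, and the remaining regions, from GP at 0.716 to TH at 0.805, lay above. CA3 was lower than each of those 7 regions by the test and differed from none of DG, PC and GCL, with adjusted p values of 0.271, 0.432 and 0.781. Slc1a3, the glutamate transporter gene of astrocytes, had almost the same level in CA3 and elsewhere, at 0.213 ± 0.0108 (SD, n = 4) and 0.213.

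**Figure D2:**
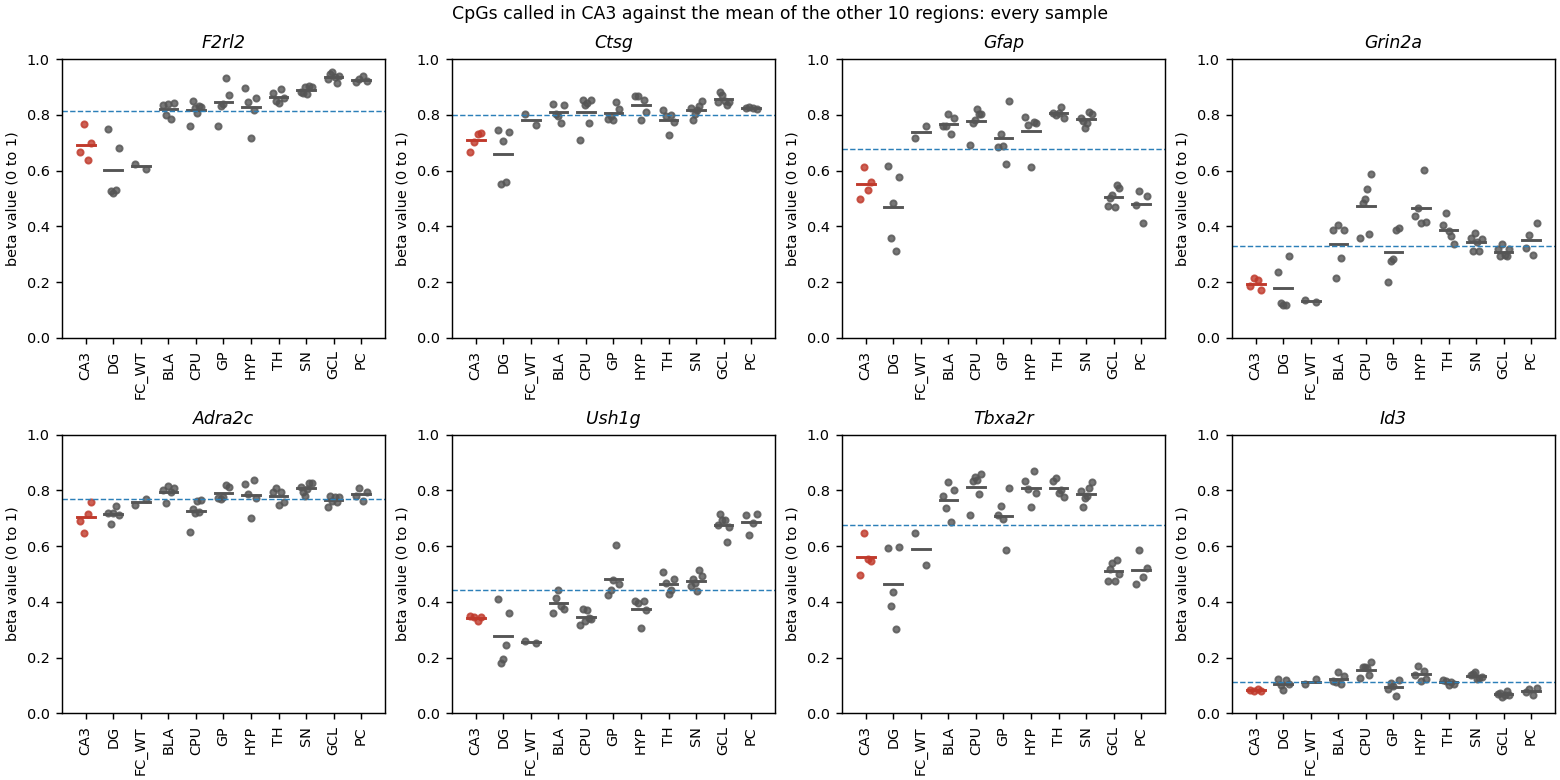
Beta value (vertical axis, 0 to 1) of every sample in the 11 regions at the 8 CpGs called in CA3, with CA3 in red, the other regions in grey, short bars for region means and a dashed line for the mean of the other 10 region means. CA3 lies below the dashed line in each panel, and at least 5 other samples lie below its highest sample.

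Ush1g, which encodes a scaffold protein of sensory hair cells, was the least variable of the calls at intermediate methylation. CA3 F3, F4, M1 and M4 had beta values of 0.348, 0.345, 0.333 and 0.345, while the other samples had 0.181, 0.438 and 0.716 as lowest, median and highest. The mean was 0.343 ± 0.00684 (SD, n = 4) in CA3 and 0.444 over the other regions (log2 difference -0.59 ± 0.16, SE; limma adjusted p = 0.0362). This mean of the others contains GCL at 0.677 and PC at 0.687. Without these 2 regions the log2 difference was -0.23, with an adjusted p of 0.483, and CA3 and CPU, at 0.346, could not be separated by the test.

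Ctsg encodes cathepsin G, a serine protease of neutrophils. Beta was 0.667, 0.703, 0.730 and 0.736 in CA3 F3, F4, M1 and M4, against 0.552, 0.819 and 0.882 for the lowest, median and highest of the other samples. Only 5 of the 49 other samples lay below the highest CA3 sample, the fewest of the 8 calls. CA3 averaged 0.709 ± 0.0314 (SD, n = 4) and the other regions 0.798 (log2 difference -0.74 ± 0.18, SE; limma adjusted p = 0.0129), with DG, at 0.660, the only region below CA3.

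Id3 encodes an inhibitor of basic helix-loop-helix transcription factors. Its methylation was low throughout, at 0.0853, 0.0819, 0.0869 and 0.0801 in CA3 F3, F4, M1 and M4 and at 0.0577, 0.115 and 0.185 as lowest, median and highest of the other samples. The CA3 mean of 0.0835 ± 0.00314 (SD, n = 4) stood against 0.113 in the other regions (log2 difference -0.43 ± 0.12, SE; limma adjusted p = 0.0362). GCL at 0.0684 and PC at 0.0803 lay below CA3, and CPU at 0.157 was the highest.

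The sources used here do not place the 382 CpGs on the genome, but the number in each CpG's name could be read against promoter sequences. RefSeq windows around gene starts (GRCm38.p6) matched 284 of the names. The number was taken as a count of bases along the gene's strand, with the gene start at 752. For genes on the minus strand the place was moved a base further along the gene. A CG then stood at the place named in 51 of 98 genes whose place fell in the window, or 52%. The next best of 842 offsets gave 15.8% and their median was 6.78%. The remaining 47 genes had no CG there, so the reading is an inference and holds for part of the array. Of the 8 calls, Ctsg and Adra2c had a CG exactly at the inferred place, and their surroundings are shown for that reason. This does not establish that these CGs are the ones measured. The inferred place of Tbxa2r also fell in its windows but held no CG. The Ctsg CpG would lie at chr14:56102642-56102643, 69 bases before the gene start on the minus strand, and the Adra2c CpG at chr5:35278470-35278471, 96 bases before the gene start on the plus strand, both in the promoter. The stretches below run 5′ to 3′ along the gene, chr14:56102582-56102703 for Ctsg and chr5:35278410-35278531 for Adra2c, with the inferred CpG in capitals.
Ctsg: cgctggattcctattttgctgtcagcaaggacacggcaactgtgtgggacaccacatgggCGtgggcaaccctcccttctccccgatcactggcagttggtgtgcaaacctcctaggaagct
Adra2c: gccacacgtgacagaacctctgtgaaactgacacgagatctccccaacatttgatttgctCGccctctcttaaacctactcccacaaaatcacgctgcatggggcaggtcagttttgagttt

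The windows of 5 of the 6 calls that have one held fewer CG, a dinucleotide that reads the same on both strands, than the median window of the array. F2rl2 had 2 CG in its window, Gfap 3, Adra2c 7 and Ctsg 8, Tbxa2r had 1 and 9 in its 2 windows, and Id3 had 19. By the reading above, the measured CpGs of F2rl2, Gfap and Id3 would lie outside these windows. Their counts thus describe the promoter and not the surroundings of the measured CpG. Many windows of the array lie below its median in any case, and whether the calls differ from the array in CG content was not tested. The median was 15 over the array's windows and 7 over the 32851 windows of all genes, of which 94.6% held at least 1 CG and 56.5% under 10. Grin2a and Ush1g had no window. Across the 230 genes with 1 window, methylation in CA3 was lower where the window held more CG (Spearman correlation -0.377). Median CA3 beta was 0.642 with under 5 CG (36 genes), 0.110 with 5 to 14 (64 genes) and 0.0840 with 15 or more (130 genes). By the reading above only 98 genes had their place inside a window, and other regions were not examined in this way. Of the 8 calls, 6 had a CA3 mean between 0.2 and 0.8, as had 99 of all 382 CpGs. Whether this sets the calls apart was not tested.

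Of the CpGs not called, P2rx1, an ATP-gated channel gene, was the nearest to the threshold and the widest but 1 of the CpGs higher in CA3, at 0.825, 0.766, 0.809 and 0.705 in CA3 F3, F4, M1 and M4, a mean of 0.776 ± 0.0535 (SD, n = 4) against 0.707 (log2 difference 0.50 ± 0.15, SE; limma adjusted p = 0.0541). PC and GCL, at 0.553 and 0.589, had the lowest means, and only DG, at 0.811, was above CA3. P2rx1 was called higher in CA3 under several alternatives, among them the fits without FC_WT or without DG. The calcium channel gene Cacna1d was at 0.573 ± 0.0423 (SD, n = 4) in CA3 and 0.669 in the others (adjusted p = 0.0829). Next came Hes3, a repressor gene of the hairy and enhancer of split family, at 0.718 against 0.779 (adjusted p = 0.0860), named here because its p followed and not by the rule for named genes. The level of Cacna1d in CA3 lay between regions: lower than in BLA, CPU, FC_WT, HYP, SN and TH by the test, at 0.766 to 0.806, and higher than in GCL and PC, at 0.320 and 0.375, with DG at 0.583. Of the other wide differences that did not pass, Calcr, the calcitonin receptor gene, was at 0.137 against 0.230, Sorbs3, an adaptor protein gene, at 0.333 against 0.415, and Sstr3, a somatostatin receptor gene, at 0.248 against 0.317 (adjusted p = 0.106, 0.407 and 0.461).

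On the higher side, the melatonin receptor gene Mtnr1b had the widest difference, at 0.412 ± 0.0476 (SD, n = 4) in CA3 against 0.341 (adjusted p = 0.106). The other regions' mean again held GCL at 0.120 and PC at 0.133, and CA3 was called higher than these 2 regions only. Adrb1, an adrenergic receptor gene coupled to cyclic AMP, was at 0.323 in CA3 against 0.274 (adjusted p = 0.107), and the muscarinic receptor gene Chrm2 at 0.769 against 0.724 (adjusted p = 0.431). CA3 had the highest mean of the 11 regions at Adrb1, Chrm2, Accn1, now Asic2, and Clic5, and none of them passed the test. In all, CA3 had the lowest mean of the 11 regions at 6 CpGs and the highest at 18. At no CpG did all 4 CA3 samples lie below or above all 49 others.

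Comparisons with single regions showed which of them CA3 departed from. All of these share the 4 CA3 samples. CA3 differed least from GP, at 6 CpGs or 1.57% of those tested, all lower in CA3: these included Gfap (0.550 against 0.716), F2rl2 (0.693 against 0.847) and Ush1g (0.343 against 0.482). No call was left against GP without CA3 M1, and 1 and 2 were left without F3 and F4. From TH it differed at 21 CpGs (5.5%; 3 higher, 18 lower), from CPU at 22 (5.76%; 6 higher, 16 lower), from BLA at 24 (6.28%; 1 higher, 23 lower), from HYP at 24 (6.28%; 0 higher, 24 lower) and from SN at 33 (8.64%; 4 higher, 29 lower). The widest gaps were at the following genes. Grin2a, Tbxa2r and Sorbs3 led the calls against CPU, with CA3 at 0.194, 0.561 and 0.333 and CPU at 0.472, 0.813 and 0.576. Calcr was at 0.137 in CA3 against 0.395 ± 0.0963 (SD, n = 5) in HYP, where Grin2a and Tbxa2r also led. Gfap, Tbxa2r and Cacna1d led the calls against BLA, SN and TH. Without CA3 F3, 14 calls were left against BLA.

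**Figure D3:**
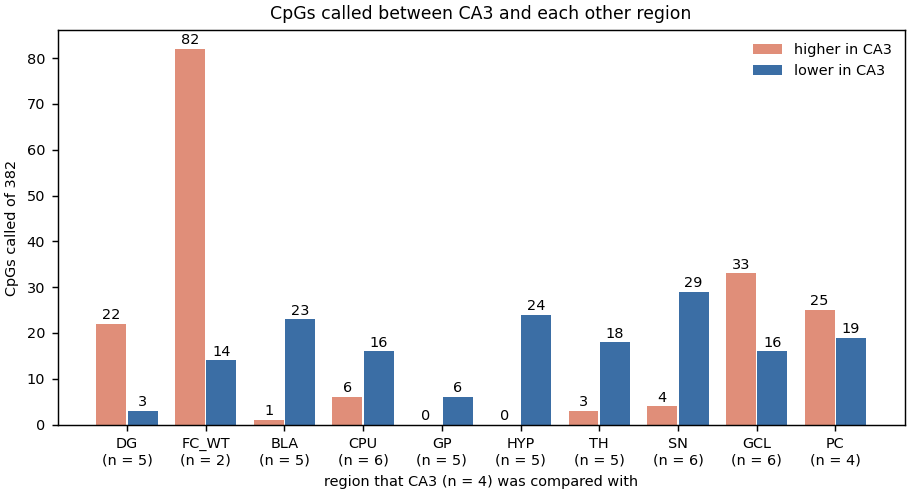
Number of CpGs, of 382, called higher (left bar) or lower (right bar) in CA3 than in each single region by limma at an adjusted p under 0.05. Lower calls are the more numerous against BLA, CPU, GP, HYP, TH and SN, and higher calls against DG, FC_WT, GCL and PC. The balance turned with the processing against FC_WT (27 higher, 52 lower with median centring) and PC (22 higher, 27 lower on untransformed beta). Against SN it became nearly even (45 higher, 46 lower with only the 2 regions fitted). Against DG no call was left with only the 2 regions fitted, without DG F7 to F9 or without CA3 F3. Against GP none was left with only the 2 regions fitted or without CA3 M1.

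Against PC, GCL, FC_WT and DG more calls were higher than lower in CA3 on the values as deposited. From PC it differed at 44 CpGs (11.5%; 25 higher, 19 lower) and from GCL at 49 (12.8%; 33 higher, 16 lower), with Ush1g lower in CA3 and Mtnr1b and Bdkrb1, a bradykinin receptor gene, higher: Bdkrb1 was at 0.916 ± 0.00231 (SD, n = 4) in CA3 against 0.636 in PC and 0.637 in GCL. From FC_WT it differed at 96 CpGs (25.1%; 82 higher, 14 lower), led by Ide, the insulin-degrading enzyme gene (0.694 against 0.372), Mas1, an angiotensin system receptor gene (0.594 against 0.305), and Adra1b, an adrenergic receptor gene (0.883 against 0.623). The balance of directions moved with the scaling. Against FC_WT, 27 CpGs were higher and 52 lower with median centring, and 60 and 58 with quantile normalization. Against PC the counts were 27 higher and 14 lower with median centring, 27 and 29 with quantile normalization, and 22 and 27 on untransformed beta. Against GCL they were 25 higher and 21 lower with median centring and 30 and 25 with quantile normalization, and against DG 9 and 6 with quantile normalization. Quantile normalization also gave 8 higher and 22 lower against BLA, 2 and 6 against GP, 9 and 24 against HYP, 12 and 26 against SN, and 13 and 17 against TH. Whole profiles were shifted in some of these comparisons: the 382 CpGs had a median log2 difference of 0.19 against FC_WT, 0.12 against SN, 0.11 against GCL and -0.11 against PC. From DG it differed at 25 CpGs (6.54%; 22 higher, 3 lower), of which 0 were left without DG F7 to F9 (27 at an unadjusted p under 0.05) and 0 without CA3 F3. Chrm2, at 0.769 in CA3 and 0.655 in DG, changed sign without them.

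Gene groups showed no more calls than these single genes. Of the 18 CpGs of ionotropic glutamate receptors 1 was called, Grin2a, and the median log2 difference of the group was 0.03, where that of all 382 CpGs was 0.06. Grin2c was at 0.327 ± 0.0307 (SD, n = 4) in CA3 against 0.376, and Grik1, a kainate receptor gene, at 0.124 against 0.109, neither of them called. Of the 7 metabotropic glutamate receptor CpGs 0 were called, with Grm2 the widest at 0.147 against 0.192 (adjusted p = 0.209). Of the 18 GABA receptor CpGs 0 were called, and the highest difference was that of Gabra4, at 0.122 against 0.103. Among monoamine receptors and transporters 1 of 25 was called, Adra2c, and among purine receptors and adenylate cyclases 0 of 17. The acetylcholine and histamine receptors had 0 calls among 12 CpGs, of which 10 were above the other regions in mean beta, as were 233 of all 382 CpGs. Those of nicotinic receptors reached 0.380 ± 0.0252 (SD, n = 4) against 0.340 at Chrna10 and 0.942 ± 0.0128 against 0.918 at Chrna9.

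The largest group, 68 CpGs of neuropeptide and peptide hormone receptors, had 0 calls, differences from -0.0923 at Calcr to 0.0506 at Bdkrb1 and a median log2 difference of 0.03. Among protease and lipid mediator receptors 2 of 24 were called, F2rl2 and Tbxa2r, both lower. The 8 ion channel CpGs had 0 calls, with Cacna1d and Kcnip1 lower and P2rx1 and Accn1 higher in mean beta. Kcnip1, whose product binds potassium channels, stood at 0.0980 ± 0.0159 (SD, n = 4) against 0.161 (adjusted p = 0.106). Of the 8 CpGs of hippocampal plasticity and stress genes 0 were called. Both CpGs of Nr3c1, the glucocorticoid receptor gene, had their highest region mean in CA3, at 0.111 and 0.172 against 0.0873 and 0.154. Of 4 genes the study is known for, F2rl2 and Tbxa2r were called, and Spnb4, now Sptbn4, and Sorbs3 were lower in mean beta without passing (adjusted p = 0.236 and 0.407). Those 4 genes were listed with earlier results of these data known, so this count is not independent evidence.

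Markers of other cell types showed few differences beside those of Gfap and Tbxa2r. The 7 oligodendrocyte CpGs had 0 calls and differences from -0.0330 to 0.0138, with Gm98, now Myrf, at 0.358 against 0.391 and Cnp at 0.0927 against 0.0830. The neuronal genes Gap43 and Reln were at 0.349 and 0.152 against 0.355 and 0.154, and the immune gene Ifng at 0.875 against 0.876. Of amyloid and tau related genes 0 of 4 were called, and Ide was the widest, at 0.694 against 0.643. The patterning gene Tbx1 was at 0.249 against 0.298 (adjusted p = 0.773). The array has no choroid plexus or ependymal CpG of the list. Whether a different share of cell types has a part in the 8 calls was not tested.

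The CA3 samples varied among themselves about as much as those of other regions. The median SD over CpGs was 0.0122 in CA3, within a range of 0.0087 in FC_WT to 0.0236 in PC. The 5 widest ranges among the CA3 samples were at the X-linked Gabrq, L1cam and Gabre, which split by the letter of the code, and at the autosomal Sctr and Kiss1r, where M1 alone was high, at 0.436 and 0.346. Gabrq, a GABA receptor subunit gene, was at 0.253 and 0.220 in F3 and F4 and at 0.710 and 0.750 in M1 and M4. L1cam, a neuronal adhesion gene, was at 0.195 and 0.155 in F3 and F4 and at 0.493 and 0.494 in M1 and M4, and Gabre, another GABA receptor subunit gene, at 0.0681 and 0.0483 in F3 and F4 and at 0.300 and 0.329 in M1 and M4. The F-coded mean was the lower at 15 of 17 X-linked CpGs, and 10 of the 17 were 0.1 or more apart, where 2 of 365 autosomal CpGs were.

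**Figure D4:**
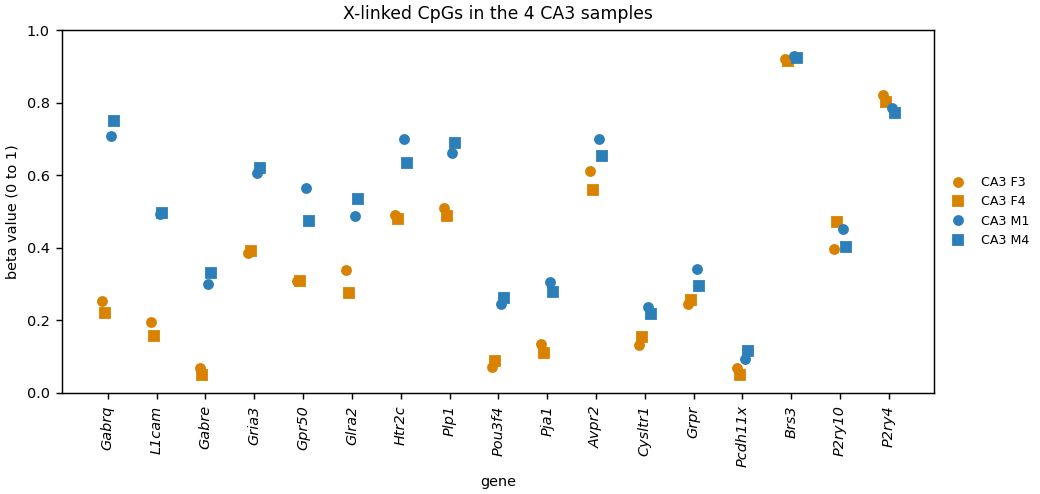
Beta value (vertical axis, 0 to 1) of the 4 CA3 samples at the 17 X-linked CpGs, ordered by the difference between M-coded (blue) and F-coded (orange) samples. The pairs separate widely from Gabrq to Pja1 and meet at Brs3, P2ry10 and P2ry4.

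Whether the CA3 difference itself depended on the letter was tested as an interaction over 51 samples, without FC_WT. It gave 0 calls (0%) by limma, with 13 CpGs at an unadjusted p under 0.05, on 2 F-coded and 2 M-coded CA3 samples. The nearest was Notch1, a gene singled out after its values were seen, where CA3 and the other regions were at 0.0726 and 0.0519 in F-coded samples and at 0.0441 and 0.0544 in M-coded ones (adjusted p = 0.914). None of the 8 calls is X-linked.

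Whole profiles set CA3 nearest to GP, and DG came next by correlation only. The Pearson correlation of region means over the 382 CpGs, which are not independent replicates and share a wide span from unmethylated to methylated, was 0.995 with GP, 0.993 with DG and 0.991 with BLA, and lowest with FC_WT at 0.978. The mean absolute difference in beta was 0.0181 to GP, and CPU at 0.0215, DG at 0.0216 and TH at 0.0217 were about equally far. It was 0.0387 to FC_WT. The DG mean includes the differently titled F7 to F9. CA3 F3 and F4 were best correlated with each other, at 0.994, and M1 with M4, at 0.991. M4 itself was best correlated with BLA M3, at 0.995, and next with DG M2.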

How the data were processed

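Per the labels' protocols, bisulphite-converted DNA was run on a custom Illumina GoldenGate array. For 382 CpGs and 58 arrays the deposited unit is the beta value (fraction). The sources used here name no background correction, normalization or build, and bead numbers were not used, so the number of arrays limits the precision. No value was missing. The CPU arrays M4_a and M4_b (correlation 0.987) were averaged, and no pair of arrays was identical. Gene names were matched to RefSeq (GRCm38.p6), 362 by symbol and 20 by synonym.

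One limma 3.58.1 fit (R 4.3.3) over the 53 samples of 11 regions, with betas clipped at 0.01 and 0.99 before the log2(beta / (1 - beta)) step, gave CA3 minus the unweighted mean of the other 10 regions and minus each region. An interaction with the code letter used cells of region by letter. Adjustment was by Benjamini-Hochberg over the 382 CpGs. Differences in beta are between plain means. Lists are described by counts and medians. Simulated data sets, 20 in number, had independent noise over 382 CpGs. In them a CA3 change of 0.5 on the log2 scale was recovered at 65% of CpGs, of 1 at 97.5% and of 2 at 99%. The simulated noise held none of the correlated deviations or outlying samples described for the real data, so these rates need not hold there.

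Replicate codes recur across regions. Deviations from region means correlated between CA3 and same-coded samples at medians of 0.315 to 0.448 over all CpGs, against -0.267 to -0.0469 with other codes. Over autosomal CpGs the medians were 0.0333 to 0.0648 (range -0.240 to 0.386), against -0.0757 to 0.0342 with other codes. For each CA3 sample the same-code median was the higher. The labels do not say that a code marks an animal, so the codes were not taken to pair samples.

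Named genes are the calls, the 10 widest differences in each direction, 3 calls per single region, the 5 widest ranges in CA3, up to 4 per list and 4 genes the study is known for. Exceptions are stated where they occur. The members, lists and tests were chosen with earlier results of these data known. Alternatives covered scaling, limits, filters, variance models, blocks, regions left out and each sample left out. Summaries and plots were made in Python 3.11.15 (numpy 2.4.6, pandas 2.3.3, matplotlib 3.10.9).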

Additional observations from a re-analysis of the deposited data

Results flagged for a closer look

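Values of 1 of the 4 CA3 samples lay far from the other 3, by Dixon's test at the 95% level, at 7 of the 70 named CpGs. Chance gives about 1 in 20 groups, but 5 of the 70 CpGs were named for their wide range in CA3. Sctr and Kiss1r, which are among the 7, belong to these 5, so the 2 rates cannot be set against each other. The cause was not tested. CA3 M1 was the highest at Sctr (0.436, others 0.0780 to 0.133), Kiss1r (0.346, others 0.0762 to 0.113), Gria1 (0.345, others 0.134 to 0.157) and Calcr (0.179, others 0.119 to 0.127). CA3 M4 was the lowest at Chrm4 (0.749, others 0.821 to 0.834) and Cysltr2 (0.689, others 0.717 to 0.720), and CA3 F3 the highest at Cnp (0.126, others 0.0783 to 0.0846). None of these CpGs was called in CA3.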

How the results depend on the processing

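The 8 calls of CA3 against the mean of the other 10 regions became 5 when a beta difference of 0.1 was also required, 20 with quantile normalization, 15 with the code letter as a covariate and without FC_WT, 13 without FC_WT, 17 without DG, 14 without PC and GCL, and 0 when the others formed 1 group without a region term (13 at an unadjusted p under 0.05). In that last fit the spread between the other regions enters the p-value, and F2rl2 had a limma adjusted p of 0.774. Leaving out each sample in turn, with the region term kept, gave 1 to 12 calls, and F2rl2 was called each time. Replicate codes shared across regions were not taken as pairing: with the code as a fixed replicate block, without FC_WT and DG F7 to F9, 13 CpGs were called, and 16 without the block on the same samples, an alternative added after seeing the data. A random replicate block left 8 calls.

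Against single regions, CPU had 34 calls with quantile normalization. The 25 calls against DG became 15 with quantile normalization, 5 with median centring and 7 on untransformed beta. They became 0 with only the 2 regions fitted, without DG F7 to F9, and in the fits with and without the replicate block. The calls against GP became 10 with adjustment over all 10 contrasts and 0 with only those 2 regions fitted, where PC had 25 and SN 91 (45 higher and 46 lower in CA3). Leaving out each CA3 sample gave 14 to 20 calls against BLA, 0 to 25 against DG and 0 to 7 against GP. Signs turned for Bdkrb1 (-0.20 without PC and GCL), for Chrm2 against DG (-0.088 with the replicate block, -0.12 without it and -0.12 without DG F7 to F9), for Hrh1 against DG (0.038 with the block) and for Gabre (0.085 with the block, 0.22 without it, 0.036 without FC_WT, and -0.69 to 0.40 when leaving out each CA3 sample). The cause was not tested. The interaction gave 0 calls in each alternative run.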

Other observations

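CA3 M1 lay 0.1 or more above each other CA3 sample at 4 autosomal CpGs, a rule chosen after the values were seen: Adcy9 (0.357, other CA3 samples 0.137 to 0.191), Gria1, Kiss1r and Sctr. Of the 49 samples of other regions, 8 from 6 regions lay 0.1 or more above their region's median at all 4 CpGs and 36 at none. The same rule found only Gje1 for CA3 F4, which lay below.

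The single CA1 sample of the 3TG genotype entered no comparison. At the 8 calls it had beta values of 0.788 at F2rl2, 0.534 at Gfap, 0.0887 at Grin2a, 0.700 at Adra2c and 0.291 at Tbxa2r. Ctsg was at 0.698, Ush1g at 0.279 and Id3 at 0.0956. With a single array of another genotype, likeness to CA3 was not tested.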
